A study of Homo sapiens with 8 samples.

Results

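Transcripts of 10 heat shock protein genes, HSPA1A, HSPA1B, HSPA8, HSPH1, HSP90AA1, HSP90AB1, DNAJB1, HSPB1, HSPD1 and HSPE1, were compared between breast cancer cells kept at low and at high glucose. They were selected by gene symbol from a table of 21059 genes, and all 10 were found, each under 1 gene identifier. Of the 10, 9 were higher at high glucose. The stress-inducible Hsp70 genes HSPA1A and HSPA1B rose 3.77-fold and 3.31-fold and the Hsp110 gene HSPH1 rose 2.46-fold, while the other 6 that rose lay between 1.24-fold and 1.67-fold, and the small heat shock protein gene HSPB1 had nearly equal group means.

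The cells were MDA-MB-157, an established ER negative breast cancer cell line. They were conditioned in low glucose medium, then washed and kept without serum for 48 h. The low glucose group (LG1 to LG4, n = 4) had 5 mM and the high glucose group (HG1 to HG4, n = 4) 25 mM glucose, a contrast the study used to mimic diabetes in culture. No transgene, drug or other agent is named for either group, no library of cells with added mannitol, an osmotic control, is among the 8, and 1 cell line is represented. Whether the 4 replicates of a group were separate cultures is not stated, so p-values may measure technical spread only. Values are counts per 1000000 reads (CPM) that the authors scaled by the trimmed mean of M values (TMM).

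Heat shock proteins are molecular chaperones that bind unfolded or partly folded proteins and help them to fold, to assemble or to be handed on for degradation. Hsp70 proteins work in cycles driven by ATP, in which J proteins such as DNAJB1 deliver clients and exchange factors such as HSPH1 reset the cycle, and Hsp90 proteins act later on kinases, steroid receptors and other clients. In mitochondria, HSPD1 (Hsp60) and HSPE1 (Hsp10) form a folding chamber and its lid. Heat shock factor 1 (HSF1) induces many of these genes when proteins unfold by binding inverted repeats of the bases GAA in their promoters, and HSF1 activity and high chaperone levels have been described in many cancers.

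The sequences that HSF1 recognizes are shown first because the members are commonly grouped as HSF1 targets. RefSeq gene starts on the build GRCh38.p14 gave 16 promoter windows for the 10 genes, and the 250 bases before each start were searched on both strands for GAANNTTC and TTCNNGAA, which are each their own reverse complement, and for the overlapping runs of 3 units GAANNTTCNNGAA and TTCNNGAANNTTC. At least 1 match was found in 8 of the 16 windows, 1 window each for 8 of the genes, against 11.6% of 35116 windows in the same RefSeq table. A run of 3 units was found in 4 windows (of HSPA8, HSP90AA1, HSP90AB1 and HSPD1), against 0.441% of all windows. Windows of HSPH1 and HSPE1 held no match, which says only that these letters were not in these windows. A match is a description of the sequence and not a measured binding site. Stretches with their flanks are given here 5′ to 3′ on the strand of the gene, and capitals mark the matched units.
HSPA1A, chr6:31815425-31815456, plus strand: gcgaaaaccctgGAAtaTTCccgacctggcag
HSPA1B, chr6:31827621-31827652, plus strand: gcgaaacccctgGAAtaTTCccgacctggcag
HSPB1, chr7:76302479-76302510, plus strand: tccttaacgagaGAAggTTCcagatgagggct
HSPA8, chr11:123062174-123062196, minus strand: gccccTTCtgGAAggTTCtaaga
HSP90AA1, chr14:102087093-102087144, minus strand: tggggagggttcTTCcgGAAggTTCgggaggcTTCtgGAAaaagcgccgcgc
HSP90AB1, chr6:44247766-44247855, plus strand: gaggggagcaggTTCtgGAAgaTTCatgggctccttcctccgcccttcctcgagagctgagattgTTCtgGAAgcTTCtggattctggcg
DNAJB1, chr19:14518425-14518486, minus strand: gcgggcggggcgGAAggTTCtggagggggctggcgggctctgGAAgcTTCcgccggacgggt
HSPD1, chr2:197500063-197500090, minus strand: gcattTTCtgGAAagTTCtgGAAccgag

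The matches in HSPA1A and HSPA1B began 106 and 105 bases before the gene start, in upstream windows that were identical at 235 of 249 aligned bases (94.4%). HSPA8 held a further run beginning 230 bases before its start that is not printed here, and the printed one, at 55 bases, lies within an annotated exon of the gene. The matches in HSP90AA1, HSP90AB1 and DNAJB1 lay before annotated starts inside the gene, and windows of their other starts held none. In HSPD1 the match lay 245 bases before a second annotated start, within an exon of the gene as for HSPA8. HSPD1 and HSPE1 lie head to head on chromosome 2, and the 250 bases before their facing starts shared 104 bases, which do not include that match. The unit letters were present upstream of HSPB1, which was not called, and absent from the window of HSPH1, which rose 2.46-fold.

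Depth and library quality bear on all values. The table held about 9700000 to 12500000 reads per library, and 3 reads corresponded to 0.212 to 0.267 CPM. ESR1, the estrogen receptor gene, was at 0 to 0.170 CPM in the 8 libraries, the mesenchymal markers VIM, FN1, COL1A1, CDH2 and ZEB1 were all above 25 CPM, and the leukocyte and endothelial markers summed to at most 18.0 and 5.42 CPM. High glucose replicate 1 stood apart from its group. Its difference per gene from the mean of the other high glucose libraries fell with transcript length. Spearman's rho was -0.65 across 11223 genes of at least 5 CPM, given as a description. In the low glucose libraries rho was -0.13 to 0.06. It was 0.25 to 0.47 in the other high glucose libraries, whose reference mean included replicate 1, so these values may mirror its trend. All results for members were therefore also computed without high glucose replicate 1. With bulk RNA, fewer cells of one kind and less RNA per cell cannot be told apart.

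In the fit across all genes (limma on log2(CPM + 1), 2-sided, Benjamini-Hochberg adjustment over 21059 genes, threshold 0.05), 46.8% of all genes were called, 22% as higher and 24.8% as lower at high glucose. Among the members, 9 of 10 were called higher and none lower. Each member averaged at least 5 CPM, and in that class of 11297 genes 33.6% were called higher. The 4 high glucose libraries lay above all 4 low glucose libraries for 9 of the 10 members, against 32.5% of genes of at least 5 CPM. The median log2 difference was 0.71 over the 10 members and -0.0071 over the genes of at least 5 CPM, whose median absolute difference was 0.35. Without high glucose replicate 1, the same 9 members were called. Summed, the 10 members took 0.810% to 0.832% of the values of a low glucose library and 1.24% to 1.30% of those of a high glucose library.

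**Figure D1:**
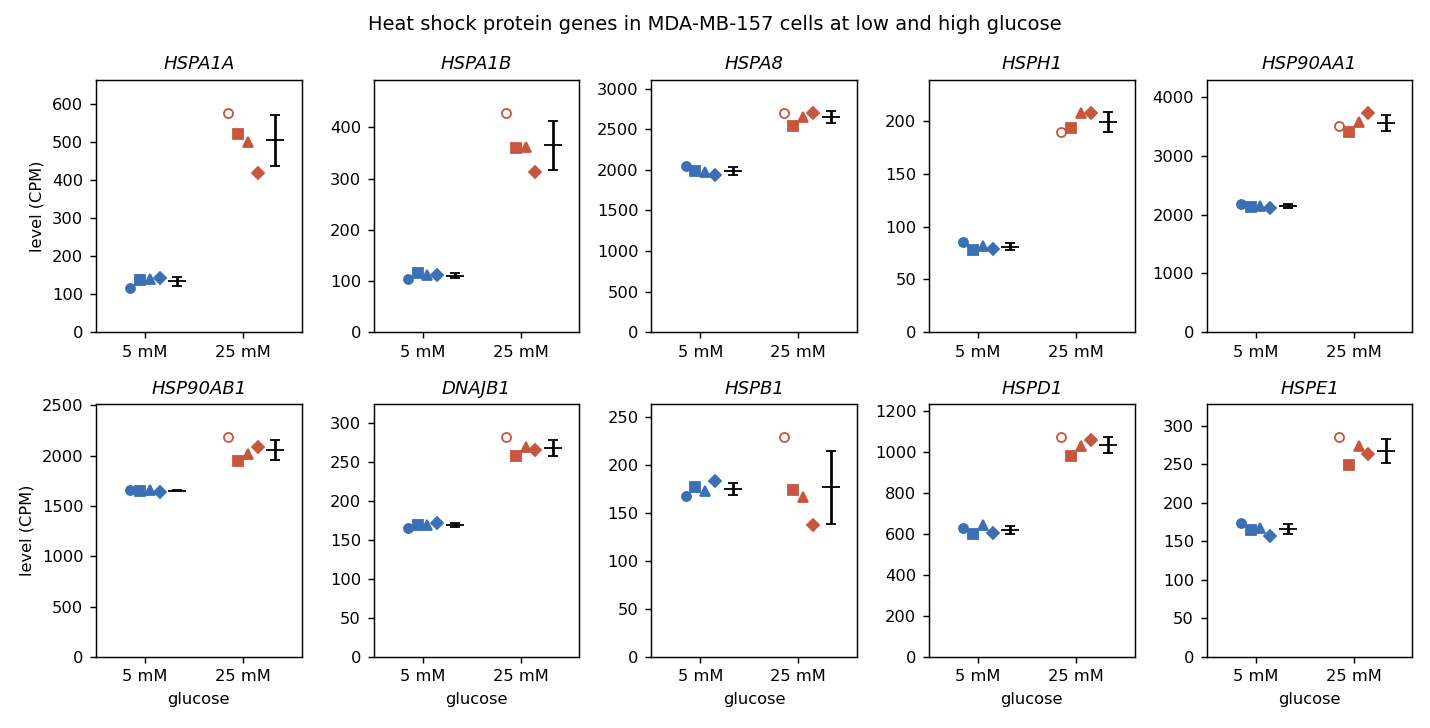
Levels of the 10 heat shock protein genes in CPM (y axes, each from 0) in the 4 low glucose (5 mM, blue) and 4 high glucose (25 mM, red) libraries. Symbol shape gives the replicate number (circle 1, square 2, triangle 3, diamond 4), the open circle is high glucose replicate 1, and the black line and bar are the group mean and SD. The groups do not overlap in 9 panels, and in HSPB1 they do.

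HSPA1A encodes the stress-inducible cytosolic Hsp70, a protein that is low in most resting cells and abundant after heat or proteotoxic stress. Its level (ENSG00000204389.9, chr6:31815543-31817942, GRCh38.p14) was 117, 137, 140 and 142 CPM in LG1 to LG4 and 578, 521, 502 and 418 CPM in HG1 to HG4. All high glucose libraries lay far above all low glucose ones, and LG1 and HG4 were the lowest of their groups. The mean went from 134 ± 11.7 to 504 ± 66.1 CPM (SD, n = 4 each), a log2 difference of 1.90 ± 0.11 (SE; 95% confidence interval 1.64 to 2.16; adjusted p = 1.34e-05, limma). By size of rise on that scale it ranked 27 among the 11297 genes of at least 5 CPM. Without high glucose replicate 1 the log2 difference was 1.83.

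HSPA1B lies beside HSPA1A and encodes an almost identical protein. In the low glucose libraries it was at 103, 115, 111 and 112 CPM and in the high glucose libraries at 429, 359, 361 and 312 CPM (ENSG00000204388.7, chr6:31827738-31830254). As for HSPA1A, HG1 was the highest and HG4 the lowest high glucose library, and LG1 the lowest of all. Its mean rose from 110 ± 5.01 to 365 ± 47.9 CPM, a log2 difference of 1.71 ± 0.092 (95% confidence interval 1.49 to 1.93; adjusted p = 1.04e-05, limma). Of the 31-base words in the HSPA1A transcript, 76.9% also occur in HSPA1B, so the division of reads between the copies is uncertain, and HSPA1B also overlaps the exons of another annotated gene on its strand. That gene holds 36.3% of the words of HSPA1A and 35.8% of those of HSPA1B. The sum of both copies does not depend on the division between them, but on whether shared reads were kept, which is not given. The 4 low glucose libraries had 220 to 254 CPM and the 4 high glucose ones 730 to 1006 CPM, a 3.56-fold rise of the mean (log2 difference 1.82 ± 0.10; adjusted p = 1.12e-05, limma). HSPA1A took 53.0% to 56.0% of the sum in the low glucose libraries and 57.2% to 59.2% in the high glucose libraries.

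HSPA8 (Hsc70) is the constitutive cytosolic Hsp70, which serves folding, clathrin uncoating and chaperone-mediated autophagy in unstressed cells. It was one of the most abundant members, at 2043, 1989, 1977 and 1936 CPM in LG1 to LG4 and 2705, 2545, 2654 and 2699 CPM in HG1 to HG4 (ENSG00000109971.14, chr11:123057489-123062462). The groups were separate, by a much smaller factor than for the inducible genes. The mean was 1.33-fold higher at high glucose (log2 difference 0.42 ± 0.051; 95% confidence interval 0.30 to 0.54; adjusted p = 4.66e-04, limma).

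The inducible and constitutive Hsp70 genes were compared directly as the ratio of HSPA1A plus HSPA1B to HSPA8 within each library. On the log2 scale the ratio was -3.21, -2.98, -2.97 and -2.93 in LG1 to LG4 and -1.43, -1.53, -1.62 and -1.88 in HG1 to HG4. Every high glucose library lay above every low glucose library, and the mean ratio was 2.65-fold higher (log2 difference 1.41; exact permutation test, p = 0.0286, the smallest that 70 assignments allow; adjusted over 3 ratios, 0.0429). Per kilobase of transcript, the summed inducible genes went from 99.3 to 354 CPM and HSPA8 from 877 to 1171 CPM. On these values HSPA8 was the more abundant in both groups. How reads from shared sequence were counted is not given, so this order is uncertain.

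DNAJB1 (Hsp40) is a J protein that brings clients to Hsp70 and stimulates its ATPase, and it is itself a heat-inducible gene. The low glucose libraries had 165, 170, 169 and 172 CPM and the high glucose libraries 282, 258, 269 and 265 CPM (ENSG00000132002.8, chr19:14514769-14560391). Both groups were tight, with coefficients of variation of 1.79% and 3.76%, where counting alone would give 2.18% and 1.72%. The log2 difference was 0.66 ± 0.030 (95% confidence interval 0.59 to 0.73; adjusted p = 5.08e-06, limma), a 1.59-fold rise, which had the smallest standard error of the 10.

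HSPH1 (Hsp105) belongs to the Hsp110 family, which exchanges nucleotide on Hsp70 and with Hsp70 and J proteins pulls apart aggregates. LG1 to LG4 had 85.8, 77.5, 81.9 and 79.3 CPM and HG1 to HG4 had 190, 193, 208 and 208 CPM (ENSG00000120694.19, chr13:31134973-31162388). HG1 was here the lowest high glucose library. The mean rose from 81.1 ± 3.58 to 199.9 ± 9.47 CPM, a log2 difference of 1.29 ± 0.044 (95% confidence interval 1.19 to 1.39; adjusted p = 2.00e-06, limma), and it ranked 140 by size of rise among genes of at least 5 CPM. Under 1% of its 31-base words (0.46%) occur in another gene, the least of the 10. It had the smallest adjusted p of the members and was the third largest rise.

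**Figure D2:**
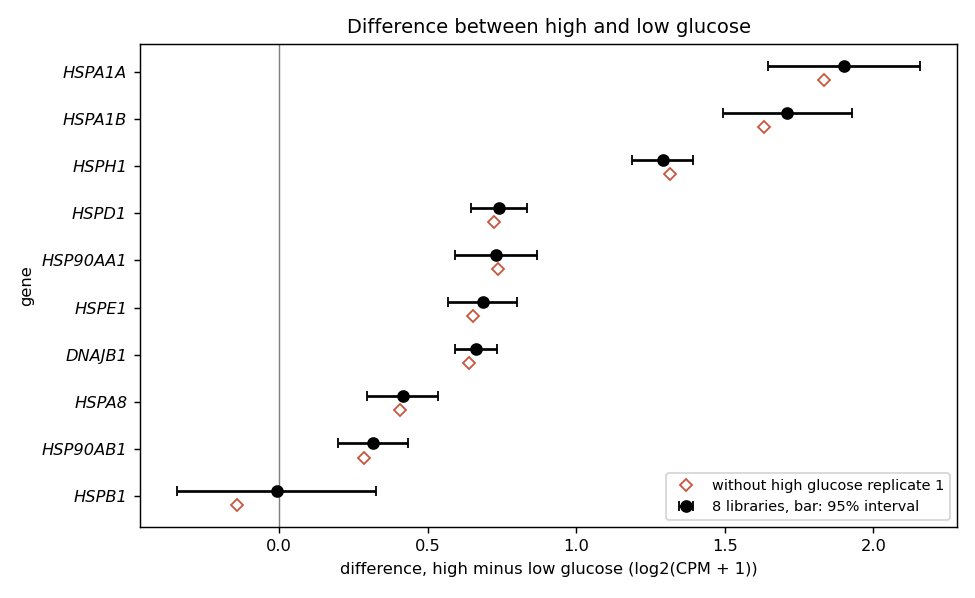
Log2 difference between high and low glucose (x axis, log2(CPM + 1)) for each of the 10 genes (y axis, ordered by size). Black points and bars are the difference and its 95% confidence interval over 8 libraries, and open diamonds are the difference without high glucose replicate 1 and lie on the same side of 0 as the black point for each gene. HSPA1A, HSPA1B and HSPH1 have the 3 largest differences, the other 6 genes called lie between 0.31 and 0.74, and the interval of HSPB1 spans 0.

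The cytosolic Hsp90 proteins mature and stabilize many kinases, receptors and transcription factors that tumors depend on, and HSF1 is held inactive by chaperones of this kind in resting cells. HSP90AA1 encodes the more inducible form. It was the most abundant member in CPM, at 2192, 2138, 2146 and 2111 CPM in LG1 to LG4 and 3507, 3418, 3583 and 3741 CPM in HG1 to HG4 (ENSG00000080824.18, chr14:102080742-102139749). HG4 was the highest library and the groups were far apart for their spread. The mean rose 1.66-fold, from 2147 ± 33.8 to 3562 ± 137 CPM (log2 difference 0.73 ± 0.059; 95% confidence interval 0.59 to 0.87; adjusted p = 6.27e-05, limma).

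HSP90AB1 encodes the constitutive form. Its low glucose values, 1658, 1653, 1655 and 1643 CPM, varied by 0.392% (coefficient of variation), and the high glucose values were 2183, 1943, 2017 and 2083 CPM (ENSG00000096384.20, chr6:44246194-44253883). Counting alone would give 0.699% at low glucose, more than was observed. The groups did not overlap. The rise was the smallest of the 9, 1.24-fold (log2 difference 0.31 ± 0.050; 95% confidence interval 0.20 to 0.43; adjusted p = 0.00173, limma), and the median absolute difference of genes of at least 5 CPM was larger, at 0.35.

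The log2 ratio of HSP90AA1 to HSP90AB1 was 0.40, 0.37, 0.37 and 0.36 in LG1 to LG4 and 0.68, 0.81, 0.83 and 0.84 in HG1 to HG4. The groups were separate, with HG1 the lowest high glucose library. The ratio was 1.33-fold higher at high glucose (log2 difference 0.42; exact permutation test, p = 0.0286, adjusted over 3 ratios 0.0429). Per kilobase, HSP90AA1 and HSP90AB1 were at 665 and 647 CPM at low glucose and at 1103 and 805 CPM at high glucose, with SDs of 10.5, 2.53, 42.5 and 39.9 CPM. In HSP90AA1 39.3% and in HSP90AB1 42.0% of the 31-base words also occur elsewhere, mostly in HSP90AA2P and HSP90AB3P, processed copies that averaged at most 0.656 CPM in either group.

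HSPB1 (Hsp27) is a small heat shock protein, which holds unfolding proteins without ATP, binds actin and is abundant in many breast cancers. Unlike the other members, it had overlapping groups, with 167, 177, 172 and 183 CPM in LG1 to LG4 and 228, 174, 166 and 137 CPM in HG1 to HG4 (ENSG00000106211.9, chr7:76302673-76304292). HG1 was the highest and HG4 the lowest of the 8 libraries. The means were 175 ± 6.69 and 176 ± 38.1 CPM, and the log2 difference was -0.0090 ± 0.14 (95% confidence interval -0.34 to 0.33; adjusted p = 1, limma). The interval covers a fall or a rise of about the size seen for HSP90AB1, so a change of that size was not detectable here.

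The spread of HSPB1 at high glucose, a coefficient of variation of 21.6% against 3.83% at low glucose, was the widest of the members, and counting alone would give 2.11%. HG1 was 1.44 times the mean of the other high glucose libraries for HSPB1, 1.25 times for HSPA1B and 1.20 times for HSPA1A, and 0.936 to 1.09 times for the rest. HSPB1 has the second shortest transcript of the 10, 777 bases, after HSPE1 with 557 bases. Without HG1 the log2 difference of HSPB1 was -0.14 (adjusted p = 0.232, limma), without HG4 it was 0.10 (adjusted p = 0.521), and after a fit that removed the trend with transcript length from each library it was 0.11 (adjusted p = 0.286). No setting brought HSPB1 past the threshold. The part of transcript length in its spread was not tested beyond that fit.

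HSPD1 (Hsp60) forms the barrel of the mitochondrial chaperonin, in which imported proteins fold. In LG1 to LG4 it was at 626, 600, 643 and 604 CPM, against 1071, 980, 1029 and 1058 CPM in HG1 to HG4 (ENSG00000144381.17, chr2:197486584-197500274). The high glucose libraries all lay well above the low glucose ones. The log2 difference was 0.74 ± 0.040 (95% confidence interval 0.65 to 0.84; adjusted p = 1.04e-05, limma), a 1.67-fold rise.

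HSPE1 (Hsp10) forms the lid of the same chamber, and its gene starts next to that of HSPD1 on the opposite strand. It was at 174, 165, 167 and 157 CPM in LG1 to LG4 and at 285, 248, 273 and 263 CPM in HG1 to HG4 (ENSG00000115541.11, chr2:197500379-197503449). The groups were again separate. The rise was 1.61-fold (log2 difference 0.68 ± 0.049; 95% confidence interval 0.57 to 0.80; adjusted p = 3.71e-05, limma). The exons of HSPE1 overlap those of the readthrough gene HSPE1-MOB4 on the same strand, which averaged 3.18 CPM in the low and 4.45 CPM in the high glucose group, and 55.0% of its words occur in other genes, so its level carries this uncertainty.

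The log2 ratio of HSPD1 to HSPE1 was 1.84, 1.85, 1.94 and 1.94 in LG1 to LG4 and 1.91, 1.98 and 1.91 in HG1 to HG3, with HG4 slightly above HG2. These ranges overlapped, and the difference of 0.06 was not past the threshold (exact permutation test, p = 0.171; adjusted over 3 ratios, 0.171). That does not show that the ratio was equal in both groups. Per kilobase, HSPD1 went from 275.5 ± 8.96 to 461 ± 18.0 CPM and HSPE1 from 298 ± 12.6 to 480 ± 27.8 CPM (SD, n = 4).

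**Figure D3:**
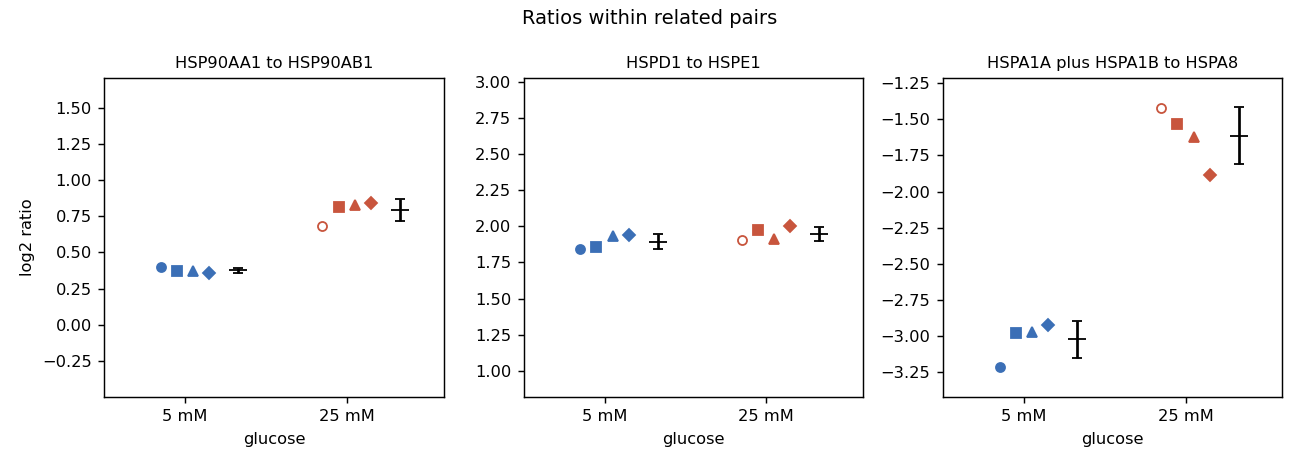
Log2 ratios within each library (y axes, each spanning the same number of log2 units and not starting at 0) for HSP90AA1 to HSP90AB1, HSPD1 to HSPE1, and HSPA1A plus HSPA1B to HSPA8 at 5 mM and 25 mM glucose. Points are libraries with the symbols of the plot of levels, and the line and bar are the mean and SD of 4. The left and right panels show separate groups (0.36 to 0.40 against 0.68 to 0.84, and -3.21 to -2.93 against -1.88 to -1.43), and the middle panel shows overlapping ones.

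By level per kilobase, the low glucose order was HSPA8, HSP90AA1, HSP90AB1, HSPE1, HSPD1, HSPB1, DNAJB1, HSPA1A, HSPA1B and HSPH1, from 877 down to 15.5 CPM per kilobase. At high glucose it was HSPA8, HSP90AA1, HSP90AB1, HSPE1, HSPD1, HSPB1, HSPA1A, HSPA1B, DNAJB1 and HSPH1, from 1171 down to 38.1 CPM per kilobase. The change in this order was that HSPA1A (55.8 to 210.2) and HSPA1B (43.8 to 145) passed DNAJB1 (75.4 to 119.7). How shared reads were counted is not given, so the places of members with much shared sequence are uncertain. At high glucose, HSPA8 and HSP90AA1, HSPE1 and HSPD1, and HSPB1 (227 ± 49.0) and HSPA1A (210.2 ± 27.5) were neighbors whose means differed by less than the sum of their SDs, and at low glucose no pair of neighbors did.

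Within the high glucose group, HG1 was the highest library for 8 of the 10 members, the exceptions being HSPH1 and HSP90AA1, where HG4 was highest. Counting alone would give a coefficient of variation of 0.613% to 3.16% over the members in the low glucose group and 0.474% to 2.11% in the other. The observed values were 0.392% to 8.77% and 2.80% to 21.6%, and HSPA1A and HSPA1B, at 13.1% each, followed HSPB1 at high glucose. Leaving out any 1 library kept all 9 calls, with adjusted p of at most 0.00904.

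HSF1, the transcription factor whose recognition units are printed above, was 65.2 ± 3.09 CPM at low glucose and 85.8 ± 14.9 CPM at high glucose (log2 difference 0.38 ± 0.12; adjusted p = 0.0354, limma). Its libraries were 62.7, 68.9, 62.5 and 66.5 CPM against 105, 86.4, 83.1 and 68.8 CPM, so HG4 lay just below LG2. This call was lost without any 1 of LG1, LG2, LG3, LG4, HG2 or HG3, with adjusted p of 0.0564 to 0.0837, and without HG1 it held at a log2 difference of 0.28. A transcript level does not measure HSF1 activity, which is set mainly at the protein. All 9 measured genes of a list of HSF factors and their partners were called, 6 higher and 3 lower, with a median of 0.38. Of all genes of at least 5 CPM, 66.9% were called and 33.6% were called higher. Without any 1 of LG1, LG2, LG3, LG4, HG2 or HG3 the list count was 6, 3 higher and 3 lower. HSF2, a related factor that can pair with HSF1, rose from 24.5 to 39.6 CPM (log2 difference 0.67), and SIRT1, a deacetylase that prolongs DNA binding by HSF1, rose from 34.5 to 81.7 CPM (1.22). HDAC6, a cytosolic deacetylase tied to the response to misfolded protein, fell from 129 to 71.1 CPM (-0.85).

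Of 24 genes known as HSF1 targets outside the 10, 20 were called higher and none lower, with a median log2 difference of 0.66, and the same counts held without high glucose replicate 1. The list was compiled from general knowledge, but with earlier results of these data known, so its count is not an independent test. Of all genes of at least 5 CPM, 33.6% were called higher. DNAJB4, a J protein, rose from 34.2 to 85.4 CPM (log2 difference 1.30). FKBP4, an Hsp90 partner of steroid receptors, rose from 58.1 to 107 CPM (0.87) and CHORDC1, another Hsp90 partner, from 60.8 to 108 CPM (0.81). The other 4, among them CRYAB, SERPINH1 and UBB (named after their values were seen), did not pass the test.

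The Hsp70 machine beyond the members was covered by 3 lists. Called shares of the 3 lists were 66.7%, 81.5% and 90.9%, in the order given below, against 66.9% of genes of at least 5 CPM. Shares called higher were 55.6%, 51.9% and 72.7%, against 33.6%. Of 9 other Hsp70 and Hsp110 genes, 5 were higher and 1 was lower, with a median of 0.48. HSPA4L, an Hsp110 relative of HSPH1, rose from 8.19 to 24.2 CPM (log2 difference 1.45), HSPA4, another relative, from 183 to 255 CPM (0.48) and HSPA13, a microsomal Hsp70, from 150 to 239 CPM (0.67). Of 27 other J protein genes, 14 were higher and 8 lower (median 0.14), among them DNAJA1, at 295 and 472 CPM (0.68), and DNAJB6, at 74.8 and 121 CPM (0.69), both higher. Of 11 Hsp70 co-chaperones, 8 were higher and 2 lower (median 0.37), and 1 was lower without any 1 of LG2, LG3, LG4, HG2, HG3 or HG4. BAG1, BAG3 and BAG5, exchange factors with a BAG domain, rose by 1.67, 1.11 and 0.47 on the log2 scale, BAG1 from 25.2 ± 1.66 to 82.4 ± 7.74 CPM.

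Of 20 Hsp90 co-chaperones, 9 were higher and 3 lower, with a median of 0.24. The counts were 11 and 3 without high glucose replicate 1, and 9 and 1 without LG4. Of this list 60% were called, below the 66.9% of all genes of at least 5 CPM, and 45% were called higher, against 33.6%. AHSA1, the main activator of the Hsp90 ATPase, rose from 150 to 227 CPM (log2 difference 0.59). The relatives of HSPB1 were mostly scarce in these cells, and 42.9% of them were called, against 46.8% of all genes. Shares called higher and lower were 14.3% and 28.6%, against 22% and 24.8% of all genes. Of 7 small heat shock protein genes in the table, 1 was higher (HSPB8, a partner of BAG3 in autophagy, 2.91 to 5.87 CPM) and 2 were lower (HSPB3, 5.35 to 0.765 CPM, and HSPB7, at 0 in 3 of 4 high glucose libraries and at most 0.580 CPM elsewhere, near the value of 3 reads). Among 19 mitochondrial chaperones and proteases, the neighbors of HSPD1 and HSPE1, 9 were higher and 4 lower (median 0.12). Without high glucose replicate 1 the counts were 8 and 6. Called genes made up 68.4% of that list, near the share of all genes of at least 5 CPM, and 47.4% were called higher. HSPA9, the mitochondrial Hsp70, rose from 405.5 to 536 CPM (0.40), its exchange factor GRPEL1 from 40.6 to 84.7 CPM (1.04), and LRPPRC, which protects mitochondrial mRNAs, from 285 to 367 CPM (0.36).

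Over all lists, 108 of 147 genes in the table were called, 75 higher and 33 lower, with a median log2 difference of 0.18. Among the 134 of at least 5 CPM on average, 99 were called (73.9%), near the 66.9% of all genes of that level, and 54.5% were called higher, against 33.6%. Some genes stand in more than 1 list (14), and the counts per list are therefore not independent. All named increases and decreases had adjusted p of at most 0.0354 in the limma fit apart from those given as not past the test.

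**Figure D4:**
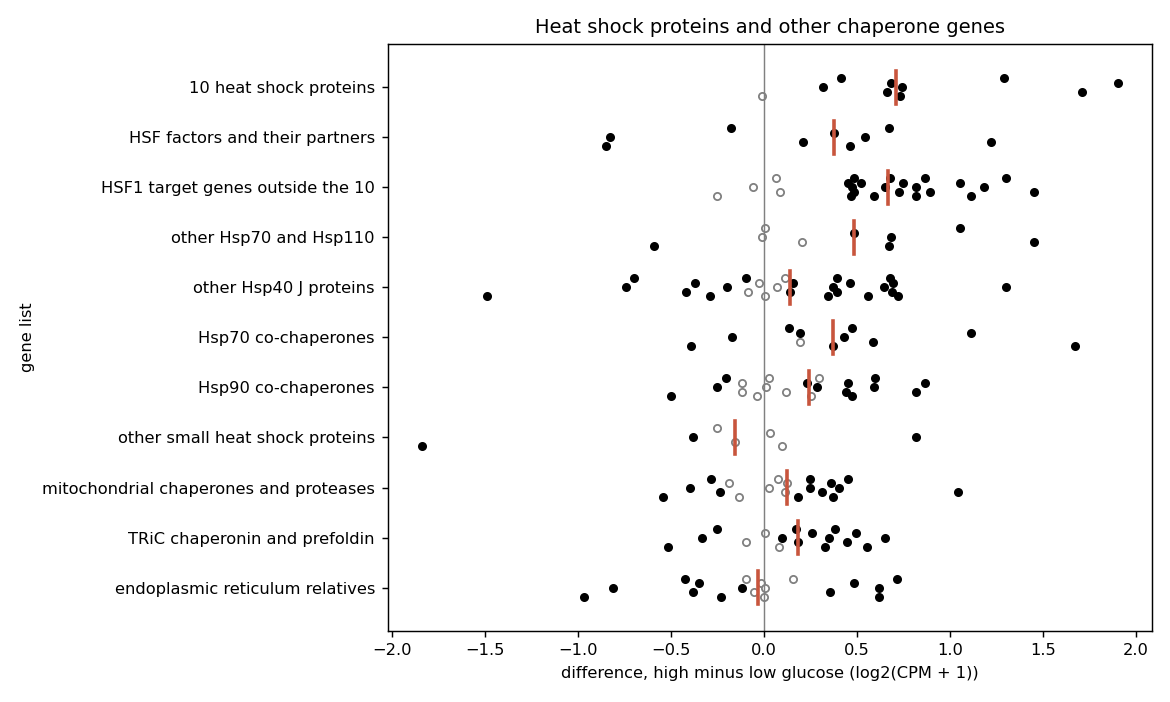
Log2 difference between high and low glucose (x axis, log2(CPM + 1)) for the 10 members (top row) and the genes of 10 lists of other chaperone genes (y axis). Filled points were called by limma and open points were not, vertical offsets only separate the points, and red lines are list medians, which run from -0.16 for other small heat shock proteins to 0.66 for HSF1 targets outside the 10, against 0.71 for the members.

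Genes whose levels followed a member most closely over the 8 libraries were ranked by Pearson's r of log2(CPM + 1), as a description and over libraries that fall into separate groups, so that any gene separating the groups scores high. Over 11287 genes of at least 5 CPM, 1734 had r above 0.95 with DNAJB1 and 1731 with HSPD1. Among those closest to DNAJB1 were YTHDF1 (0.998, 105 to 197 CPM) and SEC61A2 (0.998, 22.8 to 48.4 CPM). Closest to HSPD1 were HNRNPK, DPH3 and CTNNAL1, each at 0.999, whose means went from 665 to 832, from 46.9 to 97.2 and from 108 to 211 CPM.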

How the data were processed

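RNA was sequenced from 8 MDA-MB-157 libraries, 4 at low and 4 at high glucose, grouped by the titles in the labels. The authors deposited 1 table of CPM, scaled with TMM factors from edgeR, which the labels name with the build hg38. The study's methods, written first for tumors, describe stranded libraries, trimming, TopHat on hg19 and removal of genes under 0.5 CPM unless 2 or more samples reached it. The counting tool and its use of strand are not given in the sources used here. No exon of another gene lies antisense to an exon of the canonical transcript of a member. Exons of the members' other transcripts were not examined for this. Raw counts were not recovered, since only 74.2% to 75.7% of values below 2 CPM were whole multiples of 1 read (tolerance 0.02 read), so no count test was run. Depth was estimated as the column sum divided by that step, and covers counting error only.

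Of 21077 lines, 18 copies of pseudoautosomal genes on Y, identical to X, were left out. The other 21059 genes, 856 of them at 0 throughout, were fitted as log2(CPM + 1) in limma 3.58.1 (R 4.3.3, eBayes with trend, no covariate). Fold changes named as such are ratios of mean CPM, and log2 differences understate changes of low genes. Ratios used exact 2-sided permutation tests over 70 assignments. On data simulated for this comparison with 21059 genes, 169 of 200 genes changed 2-fold were recovered with 11 false calls. The simulation changed far fewer genes than were called in the data, and most members called rose less than 2-fold. These figures therefore do not give the error rate of the present calls. Positions and promoters came from RefSeq on GRCh38.p14 (all 10 members matched), and transcript lengths and shared words from GENCODE 44 on GRCh37. CPM per kilobase divides by the length of the canonical transcript.

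Members and lists were chosen with earlier results of these data known. Named genes are the members, HSF1, the 3 genes with the smallest adjusted p among those called in each list, and the 3 genes most like DNAJB1 and HSPD1, of which 1 is not reported here. DNAJB4, FKBP4 and CHORDC1 fell under this rule in more than 1 list. Alternatives were pseudocounts of 0.1 and 5, minimums of 1 and 5 CPM, median-of-ratios scaling, quantile normalization, removal of a trend with transcript length, a replicate block, a sum of HSPA1A and HSPA1B, and leaving out each library.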

Additional observations from a re-analysis of the deposited data

How the results depend on the processing

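The count of members called stayed at 9 under all alternatives but the sum of HSPA1A and HSPA1B, where 8 of the then 9 features were called. Over 17 alternatives, 692 of 700 values for single genes kept their side of the threshold, and their direction where called. HSPB1, called in no fit, changed sign in some of them. Its log2 difference was -0.0090 in the main fit and 0.11 after removal of the length trend. The other 8 values, all of HSF1, kept the direction but lost the call. Those were 6 fits without 1 library, quantile normalization (adjusted p = 0.0965, limma) and the replicate block (0.0762). The HSPD1 to HSPE1 ratio moved most. Its log2 difference was 0.24 under quantile normalization (exact permutation test, adjusted p = 0.0286) and -0.000336 after removal of the length trend, and the cause was not tested. Of the list counts, HSF factors and partners went from 9 to 5 under quantile normalization, cause not tested, and other small heat shock proteins from 3 to 0 with a minimum of 5 CPM, which left 1 of them to test.

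Deviations of same-numbered libraries from their group means were little correlated (r of -0.04 to 0.07). Whether these libraries shared a culture or batch is not stated, and low correlation cannot exclude it. With a replicate block, the count of all genes changed was 8921 in place of 9849. The HSP90AA1 to HSP90AB1 ratio and the HSPA1A plus HSPA1B to HSPA8 ratio kept their differences of 0.42 and 1.41, and their exact permutation p became 0.125, the smallest that 16 sign flips allow (adjusted 0.188). Limits are 1 cell line, 4 libraries a group, replicates of unstated origin, no osmotic control, shared sequence in most members, and a high glucose replicate that differs from its group along transcript length.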

Other observations

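Of 17 genes of the TRiC chaperonin and prefoldin, which fold actin and tubulin, 11 were higher and 3 lower at high glucose. Their median log2 difference was 0.18. The counts were 10 and 4 without high glucose replicate 1, while 1 was lower without any 1 of LG1, LG3, HG3 or HG4. Only 8 were called higher without LG2, without LG4 or under quantile normalization. The TRiC subunit genes TCP1, CCT5 and CCT6A rose from 142 to 224 CPM, from 389 to 572 CPM and from 308 to 387 CPM (log2 differences 0.65, 0.55 and 0.33). Of 18 relatives in the endoplasmic reticulum, 5 were higher and 7 lower (median -0.03), and 6 and 7 without high glucose replicate 1. Called shares of the TRiC and reticulum lists were 82.4% and 66.7%, against 66.9% of genes of at least 5 CPM. Shares called higher were 64.7% and 27.8%, against 33.6%. DNAJC3, an inhibitor of the kinase PERK, rose from 166 to 274 CPM (log2 difference 0.72), while SIL1, an exchange factor of the reticulum Hsp70, went from 38.0 to 18.9 CPM (-0.97) and PDIA4, a disulfide isomerase, from 212 to 121 CPM (-0.81), both lower. The reticulum Hsp70 and Hsp90 themselves, HSPA5 and HSP90B1, named here after their values were seen, did not pass the test (limma).

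Of 26 groups of 4 libraries examined for a single value far from the others, those of the 10 members and of the 3 ratios, 0 held one by Dixon's test, where 1.3 would be expected by chance.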
